A study of Mus musculus with 12 samples.

Results

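The deposited table held 59 genes of the main histone-modifying enzyme families among its 24259 gene symbols. They were chosen by symbol: the lysine demethylase symbols Kdm1 to *Kdm8*, the classical deacetylases (Hdac), the sirtuins *Sirt1* to *Sirt7*, the lysine acetyltransferases (Kat), the Setd genes with a SET methyltransferase domain, and the protein arginine methyltransferases (Prmt). The rule reads symbols and no measured value, although it was set with earlier results of these data known. It leaves out Kdm1b, which the symbol search also finds. The families held 17 lysine demethylases, 11 classical deacetylases, 9 SET-domain methyltransferases, 8 arginine methyltransferases, 7 lysine acetyltransferases and 7 sirtuins. *Setd8* is the older symbol of *Kmt5a*, and *Prmt10* that of *Prmt9*.

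RNA was sequenced from sucrose gradients of germinal vesicle (GV)-stage oocytes of WT mice and of *Lsm14b*-KO mice, which lack an RNA-binding protein of oocytes. The KO mice were homozygous for a reporter-tagged knockout-first insertion, *Lsm14b* tm1a(KOMP)Mbp, on the C57BL/6J strain, so every cell of the animal carries it and not the oocyte alone. Oocytes of both genotypes came from 3-week-old females 46 h after 5 IU of PMSG, and about 1500 of them made 1 lysate, so that a library pools many oocytes and gives no value for a single cell. Fractions 1 to 10 of the 28 collected were combined as the RNP pool, which holds mRNA outside polysomes, and fractions 11 to 28 as the polysome pool. Each pool of each genotype was sequenced in 3 libraries, 12 altogether, and the values are FPKM (fragment counts scaled to transcript length and sequencing depth). The labels do not say whether the replicates come from separate lysates or animals, so the p-values below measure the spread between these libraries.

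Histone-modifying enzymes add or remove small chemical groups on the histone tails around which DNA is wound. Acetyltransferases add acetyl groups to lysines, which goes with open, transcribed chromatin, and deacetylases and sirtuins take them off. Lysine and arginine methyltransferases write methyl marks whose effect depends on the residue, and lysine demethylases erase them. The fully grown GV-stage oocyte has largely stopped transcription, so it relies on stored maternal mRNA, and an mRNA for such an enzyme can be kept in RNPs or be loaded on polysomes for translation. Some members act mainly on other substrates: *Setd3* methylates actin, *Hdac6* deacetylates tubulin, and *Sirt3*, *Sirt4* and *Sirt5* work in mitochondria.

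The level of the targeted gene matched the labels. *Lsm14b* was at 11.3, 15.3 and 13.2 FPKM in the WT polysome libraries and 0.260, 0 and 0.0876 in the KO ones, and at 34.6, 29.3 and 27.4 against 0.893, 0.0627 and 0 in the RNP pool. All 12 oocyte markers looked up, *Gdf9* and *Zp3* among them, were detected, and *Kdm5d*, the only Y-linked member, was listed at 0 in all 12 libraries. Markers of follicle somatic cells were also detected, with a sum over 18 genes of 27.9 to 78.2 FPKM for WT and 81.2 to 102 FPKM for KO in the polysome pool, and of 31.5 to 37.5 against 43.2 to 66.8 FPKM in the RNP pool. Of the 18, *Ptx3*, *Tnfaip6*, *Star* and *Lhcgr* were at 0 in every library. *Inha*, *Inhba* and *Fshr* were higher in KO polysomes (log2 changes 3.27, 2.94 and 2.22) and *Inha* also in KO RNPs (2.79), past an adjusted p of 0.05 by limma. In polysomes *Inha* was at 9.58, 0 and 8.11 FPKM in WT and 51.4, 39.4 and 39.5 in KO, a level that many members did not reach. *Inhba* and *Fshr* in polysomes and *Inha* in RNPs reached 1 FPKM in KO libraries alone. They entered these tests through the group where they were high. Of the 7 markers tested in polysomes 5 changed upward and 2 downward, and in RNPs all 4 tested changed upward. *Cyp19a1*, the most abundant in WT, was at 62.0, 19.0 and 32.0 FPKM in WT polysomes against 14.6, 23.5 and 34.5 in KO polysomes. The part of the somatic markers in the member changes between genotypes was not tested. Blood and immune markers summed to at most 8.999 FPKM per library, with the globin genes and *Ptprc* at 0. In KO polysome replicate 2, the 10 most abundant genes held 34.7% of the summed FPKM, against 11.6% to 14.7% in the other 11 libraries, and results of the KO polysome pool are therefore given with and without it where a call changes. The highest value of this library was that of 1 miRNA gene, *Mir300*, at 170809 FPKM of a summed 698228. Low FPKM values fall on steps, from which a depth of 4.68 to 7.78 M fragments per library was estimated.

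Most of these mRNAs were at a low level in the sequenced pools, and a few at a high one. The mean over the 12 libraries weighs both pools alike and does not give the level in the whole oocyte. Over the 12 libraries, 4 members averaged at least 50 FPKM, 17 at least 10 FPKM, and 18 less than 1 FPKM. *Kdm6b*, a demethylase of the H3 lysine 27 trimethylation that Polycomb writes, had the highest mean, 119.6 FPKM, and ranged from 103 to 149.6 FPKM. *Kdm2b*, a demethylase that also brings Polycomb to CpG islands, followed with 70.8 FPKM, then the nuclear sirtuin *Sirt6* with 66.9 FPKM and the nucleolar sirtuin *Sirt7* with 58.96 FPKM. The next in order were the acetyltransferase *Kat7* at 40.5, *Setd3* at 36.9 and the arginine methyltransferase *Prmt2* at 32.3 FPKM. The ranges of *Sirt6*, 32.4 to 94.6 FPKM, and of *Sirt7*, 34.9 to 88.9 FPKM, overlapped, and so did those of *Kat7*, 25.4 to 54.7, and *Setd3*, 17.98 to 56.7. FPKM is scaled to transcript length, so these levels can be set side by side between genes.

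Within most families 1 pair of genes held most of the signal. *Kdm6b* and *Kdm2b* made up 73.9% to 85.8% of the summed demethylase FPKM of a library, *Prmt2* and *Prmt3* 77.0% to 92.5% of that of the arginine methyltransferases, and *Sirt6* and *Sirt7* 66.7% to 77.5% of that of the sirtuins. The signal was spread more evenly in the other families: *Kat7* and *Kat6b* held 50.4% to 61.7%, *Setd3* and *Setd4* 41.3% to 59.3%, and *Hdac2* and *Hdac3* 33.7% to 66.1%. The classical deacetylases were the least abundant family, at 12.4 to 30.5 FPKM in sum per library for 11 genes, against 190 to 302 FPKM for the 17 demethylases.

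*Hdac2*, the deacetylase with the highest mean, was at 7.69, 4.34 and 3.56 FPKM in WT polysomes, 10.95, 9.29 and 5.05 in KO polysomes, 5.09, 3.45 and 5.29 in WT RNPs and 5.93, 5.37 and 6.48 in KO RNPs. Its paralog *Hdac1*, its usual partner in repressor complexes, was at 1.29, 0.177 and 1.99 FPKM in WT polysomes and 4.38, 3.08 and 0 in KO polysomes, and at 1.60, 0.838 and 2.96 in WT RNPs and 1.18, 1.66 and 0.343 in KO RNPs. *Hdac2* exceeded *Hdac1* in all 12 libraries.

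Low members were measured with a wide spread. *Hdac8*, an X-linked deacetylase that acts on cohesin, was at 5.19, 0.207 and 7.06 FPKM in WT polysomes, 1.80, 0.258 and 0 in KO polysomes, 5.07, 0.392 and 4.78 in WT RNPs and 4.65, 1.16 and 1.90 in KO RNPs. Converted with the estimated depth, its WT polysome values stand for about 54.3, 2.2 and 95.4 fragments, which come from amplified cDNA and are not independent molecules. *Sirt1*, a nuclear sirtuin, was at 5.97, 0.214 and 2.68 FPKM in the WT polysome libraries, 7.98, 4.83 and 4.47 in the KO ones, 5.08, 1.59 and 4.83 in WT RNPs and 4.04, 3.24 and 3.68 in KO RNPs. For both genes WT polysome replicate 2 was the lowest of its group, and its deacetylase sum, 12.4 FPKM, was the lowest of the 12 libraries. *Prmt3*, which methylates a ribosomal protein, was at 4.51, 2.97 and 0 FPKM in WT polysomes and 7.85, 3.61 and 4.89 in KO polysomes, and at 2.40, 2.25 and 2.67 in WT RNPs and 4.30, 4.39 and 3.62 in KO RNPs. Changes of such members are poorly fixed by 3 libraries a group.

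Of the 59 members, 38 were above 0 in all 12 libraries, and 4 (*Hdac5*, *Kat2b*, *Kdm5d* and *Prmt8*) were listed at 0 in all of them. A member entered a test when it reached 1 FPKM in at least 3 libraries of that comparison, which 44 members did in at least 1 comparison and 40 in all 5. The 15 members tested in no comparison were those 4 with *Hdac7*, *Hdac10*, *Kdm3a*, *Kdm4a*, *Kdm4c*, *Kdm4d*, *Kdm5a*, *Prmt6*, *Prmt10*, *Setd5* and *Setd7*. Among them *Kdm3a* had the highest single value, 2.31 FPKM.

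**Figure D1:**
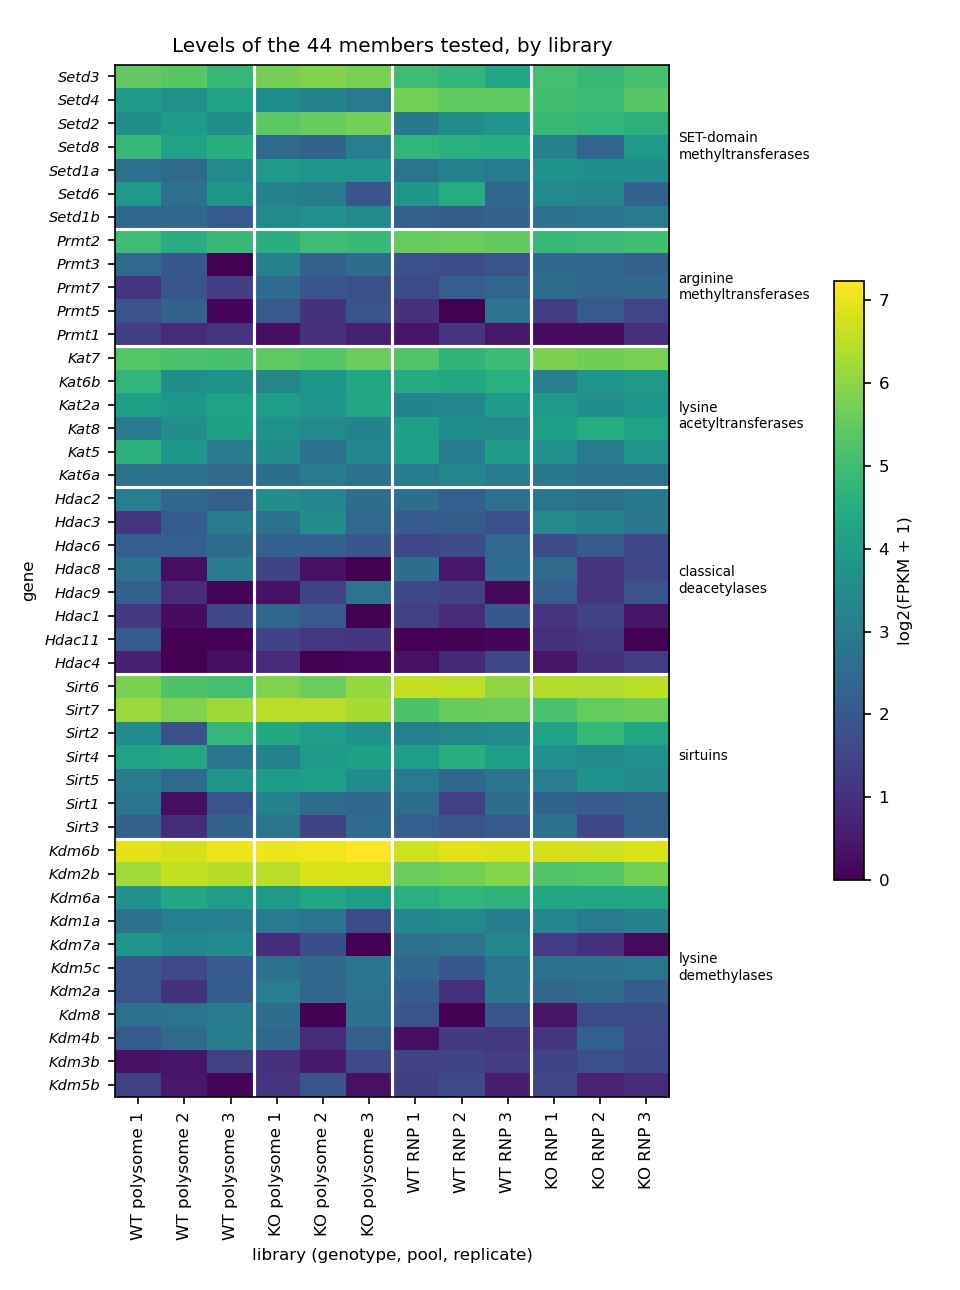
Heat map of log2(FPKM + 1) for the 44 members that entered a test (rows, by family and mean level) in each of the 12 libraries (columns, by genotype, pool and replicate). *Kdm6b* is the brightest row in every group, *Setd2* is brighter in the KO columns, and *Setd8* and *Kdm7a* are darker there.

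Translation of stored mRNA in oocytes is governed in large part by sequences close to the 3′ end, the cytoplasmic polyadenylation element and the polyadenylation signal AATAAA or ATTAAA. The last 100 bases of 1 annotated transcript per gene (GENCODE M21, GRCm38, read from the sense strand alone) were searched for TTTTAT or TTTTAAT, which differ by 1 inserted A and cannot be counted at the same bases. One of these elements was found in 13 of the 44 members tested (29.55%) and in 2037 of 10452 tested genes with a transcript (19.49%), and AATAAA or ATTAAA in 36 members (81.82%) and in 80.59% of the genes. The windows of 30 bases printed here belong to members whose levels differed between genotypes or pools, and capitals mark the TTTTAT of *Setd2* and *Setd4* and the polyadenylation signal of the others. *Setd2* (chr9:110618565-110618594, plus strand) and *Setd4* (chr16:93583460-93583489, minus strand) hold TTTTAT. In both windows AATAAA also stands in lower case, downstream of the TTTTAT in *Setd2* and upstream of it in *Setd4*, whose TTTTAT starts nearer the end of the transcript than its AATAAA does. *Setd8* (chr5:124462268-124462297, plus strand), *Sirt6* (chr10:81621799-81621828, minus strand) and *Sirt7* (chr11:120618374-120618403, minus strand) hold a polyadenylation signal and neither form of the element in the window. *Kdm2b* and *Kdm7a* hold none of the 4 searched motifs in their last 100 annotated bases. The locus given with the FPKM of *Kdm7a*, chr6:39118472-39206773, reaches further at the 3′ side than the GENCODE transcript searched. A match is a stretch of letters and not a site shown to be used, and the 3′ ends used in these oocytes were not measured.
Setd2: ttttactgaactTTTTATgtaaaaaataaa
Setd4: aggttggaataaacagacTTTTATatgaaa
Setd8: taaagcaaaaaaATTAAAatatttattgcc
Sirt6: agctcccaatgcAATAAAtacaaaatccct
Sirt7: tgagcaagtcttATTAAAcatctctcaatt

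The question of the genotype comparison is which mRNAs differ in a pool when LSM14B is absent. In the polysome pool, *Setd2* rose in KO oocytes and *Setd8* and *Kdm7a* fell. These were 3 of the 43 members tested (7.0%), and 10.4% of all 9536 genes tested passed the same threshold (limma, Benjamini-Hochberg adjusted p under 0.05), 5.64% upward and 4.73% downward. In the RNP pool 8 of 42 members passed, 4 upward and 4 downward (19.0%), against 20.7% of 9931 genes, 10.5% upward and 10.2% downward. Neither share exceeded that of all genes. At an unadjusted p under 0.05 there were 6 members in polysomes, against 26.3% of genes, and 13 in RNPs, against 34.1%. *Setd2*, *Setd8* and *Kdm7a* were past the threshold in both pools, and in the same direction. In bulk libraries like these, fewer oocytes that hold an mRNA and less of it per oocyte cannot be told apart, and total mRNA of the oocytes was not analysed here.

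*Setd2* writes trimethylation of H3 lysine 36 over transcribed genes. It lies at chr9:110532597-110618633 (mm10, plus strand), and its annotated 3′ end holds the TTTTAT printed above. In WT polysomes it was at 11.2, 14.7 and 10.99 FPKM and in KO polysomes at 41.5, 46.4 and 51.6, and in the RNP pool at 6.61, 11.02 and 12.7 against 29.1, 26.04 and 24.1. All 6 KO libraries lay above all 6 WT libraries. The mean was 3.78-fold higher in KO polysomes, a log2 change of 1.84 (SE 0.24, limma adjusted p = 0.00396), and 2.62-fold higher in KO RNPs, a log2 change of 1.34 (SE 0.26, adjusted p = 0.00719). Folds are ratios of mean FPKM here, and log2 changes are on the log2(FPKM + 1) scale, which understates changes of low values. Both calls held under each of the 8 alternative settings and without any 1 library, with adjusted p between 0.00217 and 0.0257 in polysomes and between 0.00447 and 0.0357 in RNPs. At the estimated depth the WT polysome values stand for about 549, 745 and 697 fragments.

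*Setd8* writes monomethylation of H4 lysine 20 and is needed for chromosome compaction and cell division. It is annotated at chr5:124439930-124462308 (mm10, plus strand). Its level was 28.6, 16.9 and 22.8 FPKM in WT polysomes, 4.60, 4.03 and 7.46 in KO polysomes, 26.1, 23.3 and 21.8 in WT RNPs and 8.05, 4.09 and 13.9 in KO RNPs. The KO libraries lay below the WT libraries in both pools, and KO RNP replicate 3 came closest to them. The mean was 4.25-fold lower in KO polysomes (log2 change -1.91, SE 0.37, limma adjusted p = 0.0148) and 2.73-fold lower in KO RNPs (log2 change -1.48, SE 0.36, adjusted p = 0.0191). The polysome call was lost without KO polysome replicate 2, at a log2 change of -1.76 (adjusted p = 0.0553). The RNP call was lost without KO RNP replicate 1 (-1.50, adjusted p = 0.0523) or WT RNP replicate 1 (-1.41, adjusted p = 0.0601), with no filter on low values (adjusted p = 0.0634) and with no intensity trend (adjusted p = 0.0516).

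*Kdm7a* removes repressive dimethylation from H3 lysines 9 and 27. It is annotated at chr6:39136623-39206789 (mm10, minus strand), where an antisense transcript overlaps its exons. It was at 12.7, 9.30 and 10.3 FPKM in WT polysomes and 0.913, 2.33 and 0 in KO polysomes, and at 5.24, 5.89 and 8.99 in WT RNPs and 1.37, 0.973 and 0.127 in KO RNPs. Every KO value was below every WT value, and 1 KO polysome library was at 0. The mean was 9.98-fold lower in KO polysomes (log2 change -2.66, SE 0.53, limma adjusted p = 0.0172) and 8.14-fold lower in KO RNPs (log2 change -2.12, SE 0.41, adjusted p = 0.00699), the largest fall among the members tested in either pool. It entered both tests through the WT libraries, where it was high. The RNP call held under each of the 8 settings and without any 1 library. The polysome call was lost with a pseudocount of 0.1 (adjusted p = 0.0693), with no filter on low values (adjusted p = 0.0567), without KO polysome replicate 1 (-2.68, adjusted p = 0.0508) and without KO polysome replicate 3 (-2.21, adjusted p = 0.053). Without KO polysome replicate 2 it was -3.08 (adjusted p = 0.0253).

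The other 5 members past the threshold between genotypes were so in the RNP pool. *Hdac3*, the deacetylase of the nuclear receptor corepressor complex, was at 3.21, 3.37 and 2.39 FPKM in WT RNPs and 9.54, 8.69 and 6.30 in KO RNPs, and at 1.17, 3.29 and 6.84 against 5.56, 10.9 and 4.58 in polysomes. The RNP groups did not overlap and the polysome groups did. The RNP mean was 2.74-fold higher in KO (log2 change 1.19, SE 0.31, limma adjusted p = 0.0246), and the polysome log2 change was 0.86 (95% interval -0.45 to 2.16). The RNP call was lost without KO RNP replicate 1 (1.09, adjusted p = 0.112) or replicate 2 (1.15, adjusted p = 0.0975) and with no filter on low values (adjusted p = 0.0572). *Sirt2*, a mainly cytoplasmic sirtuin that deacetylates tubulin and H4 lysine 16, was at 7.65, 8.73 and 9.71 FPKM in WT RNPs and 17.1, 27.9 and 18.1 in KO RNPs, and at 10.2, 2.50 and 27.3 against 19.9, 15.5 and 11.6 in polysomes. Its RNP groups stood apart, whereas the WT polysome libraries alone spanned the whole KO polysome range. The RNP mean was 2.42-fold higher in KO (log2 change 1.16, SE 0.26, limma adjusted p = 0.0129), and the call was lost without KO RNP replicate 2 (0.94, adjusted p = 0.0634). The polysome log2 change of *Sirt2* was 0.65 (95% interval -0.88 to 2.19) and turned to -0.13 without WT polysome replicate 2.

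*Kat7* and *Kat6b*, acetyltransferases of the MYST group, moved in opposite directions in the RNP pool. *Kat7*, which acetylates H3 lysine 14 and promotes replication licensing, was at 37.8, 25.4 and 30.1 FPKM in WT RNPs and 54.7, 49.9 and 52.7 in KO RNPs, and at 38.1, 34.7 and 34.1 against 42.2, 38.8 and 47.1 in polysomes. The KO values were above the WT values in both pools, by a log2 change of 0.75 in RNPs (SE 0.18, limma adjusted p = 0.0161) and of 0.25 in polysomes (SE 0.19, adjusted p = 0.451). Only the former passed the threshold, and it did not without KO RNP replicate 1 (0.72, adjusted p = 0.0668) or replicate 3 (0.75, adjusted p = 0.0582), or with no intensity trend (adjusted p = 0.0529). *Kat6b*, which acetylates H3 lysine 23, was at 20.8, 20.2 and 23.2 FPKM in WT RNPs and 7.47, 12.5 and 14.02 in KO RNPs, and at 26.3, 10.9 and 12.03 against 8.74, 13.03 and 19.1 in polysomes. The RNP groups were apart and the polysome groups overlapped. Its RNP mean was 1.89-fold lower in KO (log2 change -0.90, SE 0.26, limma adjusted p = 0.0386). This was the least stable of the genotype calls: it was lost without any 1 RNP library other than KO RNP replicate 3, with adjusted p from 0.0587 without WT RNP replicate 2 to 0.127 without KO RNP replicate 1, where the change was -0.65. It was also lost with no filter (adjusted p = 0.0744), with quantile normalization (0.0515) and with no intensity trend (0.0629).

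*Prmt2*, an arginine methyltransferase that acts on H3 arginine 8, was at 44.8, 46.9 and 44.3 FPKM in WT RNPs and 27.9, 29.5 and 31.8 in KO RNPs. In polysomes it was at 30.7, 21.8 and 28.1 in WT and 22.02, 30.96 and 28.4 in KO. The RNP groups were tight and separate, and the polysome groups covered nearly the same range. The RNP mean was 1.52-fold lower in KO (log2 change -0.59, SE 0.15, limma adjusted p = 0.0208), and the polysome log2 change was 0.01 (95% interval -0.56 to 0.58). The RNP call was lost without KO RNP replicate 1 (-0.55, adjusted p = 0.0888), replicate 2 (-0.59, adjusted p = 0.073) or replicate 3 (-0.64, adjusted p = 0.0533) and with no intensity trend (adjusted p = 0.0532).

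**Figure D2:**
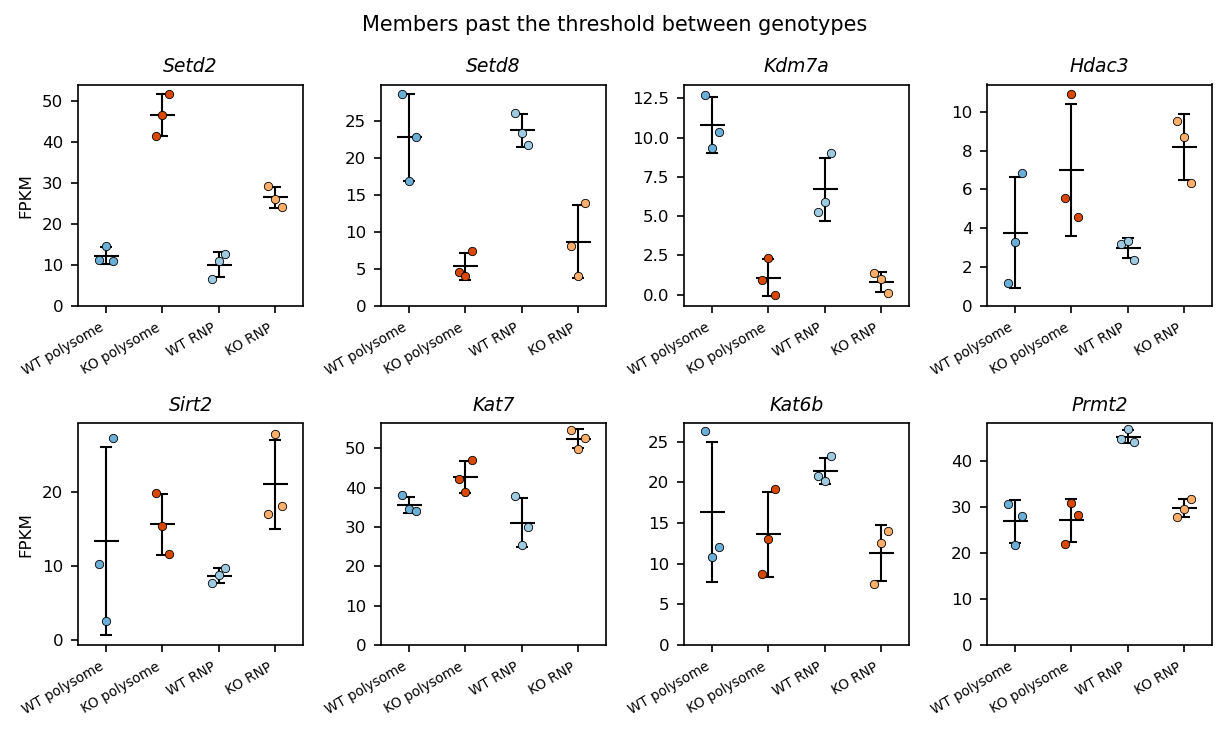
FPKM of the 8 members past the threshold between genotypes in at least 1 pool, by genotype and pool; dots are libraries, horizontal bars means and error bars the SD of 3 libraries. *Setd2* is higher and *Setd8* and *Kdm7a* are lower in KO in both pools, while *Hdac3*, *Sirt2*, *Kat7*, *Kat6b* and *Prmt2* are apart between genotypes in the RNP pool.

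By family, the SET-domain methyltransferases held 2 of the 3 polysome calls, of 7 tested. In 4 of the 7 (*Setd1a*, *Setd1b*, *Setd2* and *Setd3*) every KO polysome library was above every WT one, and in *Setd4* and *Setd8* every one was below. Over all members tested in polysomes 8 stood apart upward and 3 downward, 11 of 43, against 31.7% of all genes tested (18.2% upward and 13.4% downward). In RNPs 11 stood apart upward and 8 downward, 19 of 42, against 39.2% of all genes (20.7% and 18.4%). *Setd1b*, a methyltransferase of H3 lysine 4, was at 4.33, 4.30 and 3.23 FPKM in WT polysomes and 10.02, 11.6 and 9.86 in KO polysomes, and at 3.62, 3.43 and 3.80 against 5.68, 5.88 and 7.003 in RNPs. It stood apart in both pools, but its log2 changes of 1.22 in polysomes (SE 0.37, limma adjusted p = 0.0705) and 0.63 in RNPs (SE 0.29, adjusted p = 0.16) did not pass the threshold, except in polysomes with no intensity trend (adjusted p = 0.0367). Its paralog *Setd1a*, named here after its values were seen, had log2 changes of 0.95 and 0.64 (limma adjusted p = 0.147 and 0.107). Its polysome values were 5.33, 4.66 and 9.61 FPKM in WT and 13.7, 12.5 and 12.9 in KO, and its exons overlap those of another annotated gene on the same strand.

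Of the 11 demethylases tested in each pool, only *Kdm7a* passed between genotypes. The abundant *Kdm6b* had log2 changes of 0.21 in polysomes (95% interval -0.12 to 0.53) and -0.05 in RNPs (-0.30 to 0.20). *Kdm2b* had changes of 0.28 (-0.11 to 0.67) and -0.28 (-0.67 to 0.11). *Kdm2a*, the paralog of *Kdm2b*, was at 2.64, 1.08 and 3.40 FPKM in WT polysomes and 7.53, 4.27 and 5.75 in KO polysomes, and at 3.34, 0.948 and 6.32 against 4.21, 4.87 and 3.35 in RNPs. Its polysome groups did not overlap (log2 change 1.06, SE 0.47), but the limma adjusted p was 0.196. *Kdm8* was at 5.35, 5.90 and 6.74 FPKM in WT polysomes, 5.01, 0 and 5.48 in KO polysomes, 2.71, 0 and 2.81 in WT RNPs and 0.291, 2.22 and 2.23 in KO RNPs. KO polysome replicate 2 was at 0 and of the other KO polysome libraries 1 was just under and 1 within the WT range (log2 change -1.04, SE 0.72, limma adjusted p = 0.399).

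None of the 7 classical deacetylases, 7 sirtuins, 6 acetyltransferases or 5 arginine methyltransferases tested in polysomes passed the threshold there, and 0 were at an unadjusted p under 0.05. *Hdac8* was the furthest below 0 among them, a log2 change of -1.36 with a 95% interval of -3.12 to 0.39. The furthest above 0 were *Prmt3*, 1.15 (-0.38 to 2.69), and *Sirt1*, 1.07 (-0.43 to 2.56). Each of these intervals holds 0 and also a change larger than the 1.84 of *Setd2*. *Sirt6* and *Sirt7*, at high levels, were measured more closely: 0.48 (-0.08 to 1.05) and 0.36 (-0.03 to 0.75) in polysomes, and 0.05 (-0.32 to 0.42) and -0.01 (-0.42 to 0.41) in RNPs.

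The median log2 change of the members was 0.28 in polysomes, beside 0.10 over all genes tested, with 28 members above 0 and 15 below. Of all genes tested there, 5313 were above 0 and 4223 below. In RNPs the median of the members was 0.04 beside 0.05, with 23 above and 19 below, and of all genes 5293 were above and 4638 below. The polysome median kept its sign under each of the 8 settings, between 0.12 and 0.29, whereas the RNP median lay between -0.01 and 0.14. The summed FPKM of all members was 606 to 717 for WT and 773 to 805 for KO in the polysome pool, and 673 to 689 against 659 to 713 in the RNP pool. In polysomes the SET-domain methyltransferases (98.3 to 124 FPKM in WT, 141 to 147 in KO) and the sirtuins (121 to 169 and 187 to 202) were the families whose sums stood apart. In RNPs they were the arginine methyltransferases (51.0 to 57.2 FPKM in WT, 39.3 to 45.3 in KO) and the lysine acetyltransferases (82.2 to 106.2 and 107.0 to 115.0). No test was made on these sums.

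**Figure D3:**
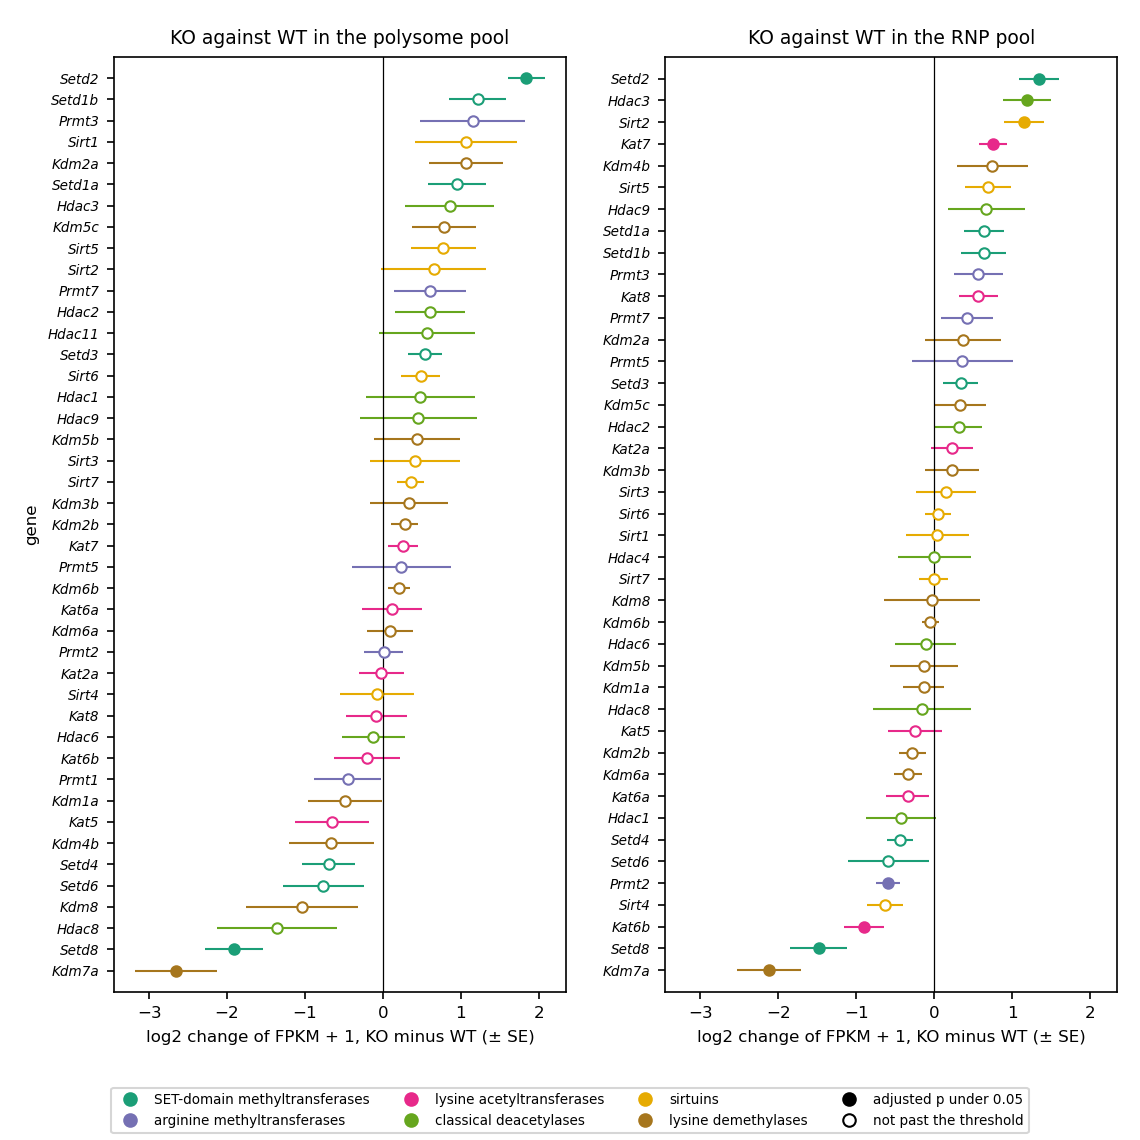
Log2 change of FPKM + 1, KO minus WT, for each member tested in the polysome pool (left, 43 members) and the RNP pool (right, 42 members), with its SE and coloured by family; filled points passed an adjusted p of 0.05. *Setd2* is at the top and *Kdm7a* and *Setd8* are at the bottom of both panels, and most members lie within 1 log2 unit of 0.

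The polysome-to-RNP ratio asks whether the level of an mRNA in polysomes relative to RNPs differed between genotypes. None of the 44 members tested passed the threshold (limma interaction of genotype and pool), and 26 of 10949 genes did (0.237%, of which 0.0822% upward and 0.155% downward). At an unadjusted p under 0.05 there were 2 members, *Kdm2b* (log2 change of the ratio 0.56, 95% interval 0.04 to 1.08, adjusted p = 0.413) and *Prmt2* (0.61, 0.02 to 1.19, adjusted p = 0.432), against 11.1% of all genes. The 3 members called in both pools had ratio changes of 0.50 for *Setd2* (-0.26 to 1.25), -0.43 for *Setd8* (-1.56 to 0.71) and -0.54 for *Kdm7a* (-1.98 to 0.90). These intervals hold 0, but also changes near or above 1 log2 unit, so that an equal ratio in both genotypes was not shown. The ratio changes furthest from 0 were those of low members. *Kdm4b*, a demethylase of H3 lysine 9, was at 3.13, 4.57 and 7.15 FPKM in WT polysomes, 4.43, 0.902 and 3.61 in KO polysomes, 0.212, 1.32 and 1.24 in WT RNPs and 1.11, 3.71 and 1.999 in KO RNPs, a ratio change of -1.41 (SE 0.71, adjusted p = 0.499). *Sirt1* was the furthest above 0, 1.03 (SE 0.80, adjusted p = 0.695), and its WT polysome libraries spanned 0.214 to 5.97 FPKM.

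Within each genotype, a few members differed between the pools. In WT, *Kdm2b* was higher in polysomes and *Setd4* and *Sirt6* were higher in RNPs, 3 of 42 members tested (7.1%, 1 toward polysomes and 2 toward RNPs) against 14.7% of 9574 genes (7.97% toward polysomes and 6.72% toward RNPs). In KO, 8 of 41 members passed (19.5%), 5 toward polysomes and 3 toward RNPs, against 29.2% of 9851 genes (15.5% and 13.8%). *Kdm2b*, *Setd4* and *Sirt6* passed in both genotypes. At an unadjusted p under 0.05 there were 8 members in WT, against 29% of genes, and 9 in KO, against 40.2%. The pools did not overlap for 10 members in WT, 5 in each direction, against 34.6% of genes (16.7% and 17.9%), and for 13 in KO, 8 toward polysomes and 5 toward RNPs, against 44.2% (22.5% and 21.7%). In total 8 members passed in at least 1 genotype. The median log2 change of the members, polysome minus RNP, was -0.03 in WT beside -0.09 over all genes, and 0.06 in KO beside -0.04, and under the 8 settings it lay between -0.11 and 0.10 in WT and between -0.02 and 0.11 in KO. As FPKM is scaled within each library, a pool difference is relative to the other mRNAs of that pool and does not give the share of molecules on polysomes.

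*Setd4*, a SET-domain methyltransferase, leaned most toward RNPs. It is annotated at chr16:93583457-93604063 (mm10, minus strand), and like *Setd2* it holds TTTTAT near its 3′ end. Its level was 14.96, 11.5 and 17.1 FPKM in WT polysomes and 50.9, 43.5 and 43.2 in WT RNPs, and 10.5, 8.45 and 6.81 in KO polysomes and 31.8, 29.99 and 39.7 in KO RNPs. All 6 RNP libraries were above all 6 polysome libraries. The mean was 3.16-fold higher in RNPs in WT (log2 change, polysome minus RNP, -1.61, SE 0.25, limma adjusted p = 0.00376) and 3.94-fold higher in KO (-1.87, SE 0.23, adjusted p = 0.000325), and both calls held under each of the 8 settings and without any 1 library. Between genotypes *Setd4* was lower in KO in each library of both pools, by log2 changes of -0.70 and -0.43, neither past the threshold (adjusted p = 0.229 and 0.101).

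*Sirt6*, which deacetylates H3 lysine 9 and guards telomeres, also leaned toward RNPs. It was at 54.3, 36.3 and 32.4 FPKM in WT polysomes and 94.6, 92.9 and 64.3 in WT RNPs, and at 56.6, 46.8 and 67.7 in KO polysomes and 83.8, 82.5 and 90.4 in KO RNPs. The pools did not overlap in either genotype. The log2 change, polysome minus RNP, was -1.03 in WT (SE 0.25, limma adjusted p = 0.0283) and -0.59 in KO (SE 0.15, adjusted p = 0.0189). The WT call was lost without WT polysome replicate 2 (-0.96, adjusted p = 0.0631) or 3 (-0.88, 0.0654), WT RNP replicate 1 (-0.93, 0.102) or 2 (-0.95, 0.0984), with no filter (0.0677) and with no intensity trend (0.0913). The KO call was lost without KO RNP replicate 1 (-0.61, 0.0548), 2 (-0.62, 0.051) or 3 (-0.55, 0.0722) and with no intensity trend (0.0686). *Kat8*, the H4 lysine 16 acetyltransferase, was at 12.2, 9.76 and 8.49 FPKM in KO polysomes and 16.6, 21.5 and 17.2 in KO RNPs, and at 6.90, 10.9 and 16.3 in WT polysomes and 15.98, 11.1 and 9.80 in WT RNPs, where the pools overlapped. Its change was -0.80 in KO (SE 0.23, limma adjusted p = 0.0277) and -0.15 in WT (SE 0.40, adjusted p = 0.839), and the KO call was lost without any 1 of the 6 libraries other than KO polysome replicate 1, with adjusted p from 0.0548 without KO polysome replicate 2 to 0.116 without KO RNP replicate 2.

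*Kdm2b* leaned most toward polysomes among the members past the threshold. It was at 73.6, 94.4 and 87.5 FPKM in WT polysomes and 47.1, 50.5 and 57.97 in WT RNPs, and at 88.97, 112 and 109.7 in KO polysomes and 37.6, 38.99 and 51.7 in KO RNPs. All 6 polysome libraries were above all 6 RNP libraries. The mean was 1.64-fold higher in polysomes in WT (log2 change 0.70, SE 0.18, limma adjusted p = 0.0336) and 2.42-fold higher in KO (1.26, SE 0.16, adjusted p = 0.000527). The KO call held under each of the 8 settings and without any 1 library. The WT call was lost without any 1 library other than WT polysome replicate 1, with adjusted p from 0.0577 without WT RNP replicate 3 to 0.113 without WT RNP replicate 1, and with no intensity trend (0.112). *Sirt7*, which deacetylates H3 lysine 18, was at 88.9, 88.4 and 76.7 FPKM in KO polysomes and 34.9, 44.9 and 47.4 in KO RNPs, and at 69.5, 56.5 and 72.4 in WT polysomes and 35.3, 45.8 and 46.7 in WT RNPs. Its pools did not overlap in either genotype, and its change was 0.99 in KO (SE 0.16, limma adjusted p = 0.00146) and 0.63 in WT (SE 0.20, adjusted p = 0.0737). *Sirt6* and *Sirt7*, the most abundant sirtuins, thus leaned toward different pools, *Sirt6* past the threshold in both genotypes and *Sirt7* in KO.

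*Setd2*, *Setd3* and *Kdm6b* passed between pools in KO, toward polysomes. *Setd3* was at 51.8, 56.7 and 52.96 FPKM in KO polysomes and 33.03, 27.5 and 33.8 in KO RNPs, and at 44.4, 39.8 and 27.8 in WT polysomes and 30.5, 26.7 and 17.98 in WT RNPs. The KO pools were apart, and WT polysome replicate 3 fell within the WT RNP range. Its change was 0.76 in KO (SE 0.15, limma adjusted p = 0.00483) and 0.56 in WT (SE 0.29, adjusted p = 0.234). *Setd2* had a change of 0.79 in KO (SE 0.16, limma adjusted p = 0.00597) and 0.29 in WT (SE 0.36, adjusted p = 0.64). The KO calls of *Setd2*, *Setd3* and *Sirt7* held under each of the 8 settings and without any 1 library. *Kdm6b* was at 131, 135 and 149.6 FPKM in KO polysomes and 108, 103 and 113 in KO RNPs, and at 121, 108 and 131 in WT polysomes and 104, 118 and 113 in WT RNPs. Its change was 0.35 in KO (SE 0.11, limma adjusted p = 0.0377) and 0.09 in WT (adjusted p = 0.719). The KO call was lost without any 1 library other than KO polysome replicate 1, with adjusted p from 0.0641 without KO polysome replicate 2 to 0.13 without KO RNP replicate 2, with quantile normalization (0.168) and with no intensity trend (0.152). That these members passed in KO and not in WT does not show a difference between genotypes, and the ratio test found none past its threshold. Exons of *Kdm2b*, *Kdm6b*, *Kat8*, *Setd4* and *Sirt2* overlap at least 1 annotated gene on the other strand, and those of *Kdm2b*, *Sirt7* and *Prmt2* at least 1 on the same strand, a miRNA gene alone for *Prmt2*. The strand setting of the counting is not given in the sources used here, and it would not separate overlaps on the same strand. Reads within the shared stretches thus cannot be told apart from those of the overlapping genes, and the extent of these stretches was not computed.

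**Figure D4:**
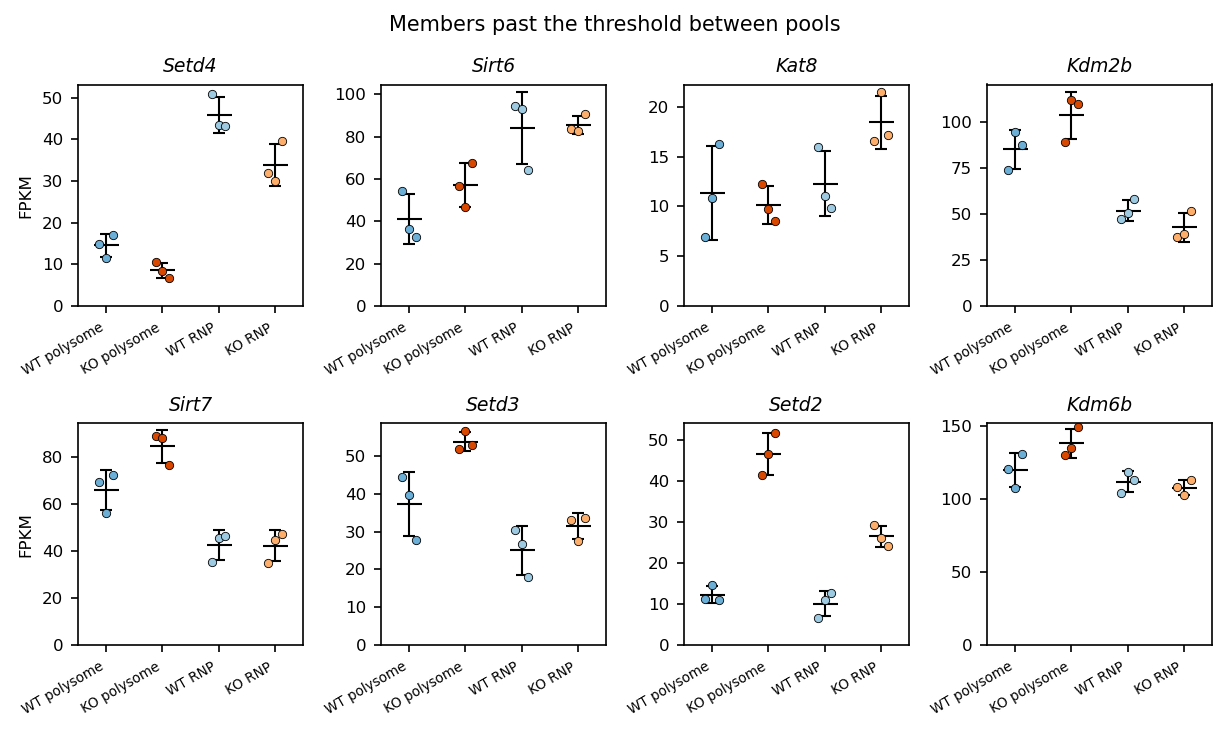
FPKM of the 8 members past the threshold between pools in at least 1 genotype, by genotype and pool; dots are libraries, horizontal bars means and error bars the SD of 3 libraries. *Setd4* and *Sirt6* sit higher in both RNP groups, and *Kdm2b* and *Sirt7* sit higher in both polysome groups.

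**Figure D5:**
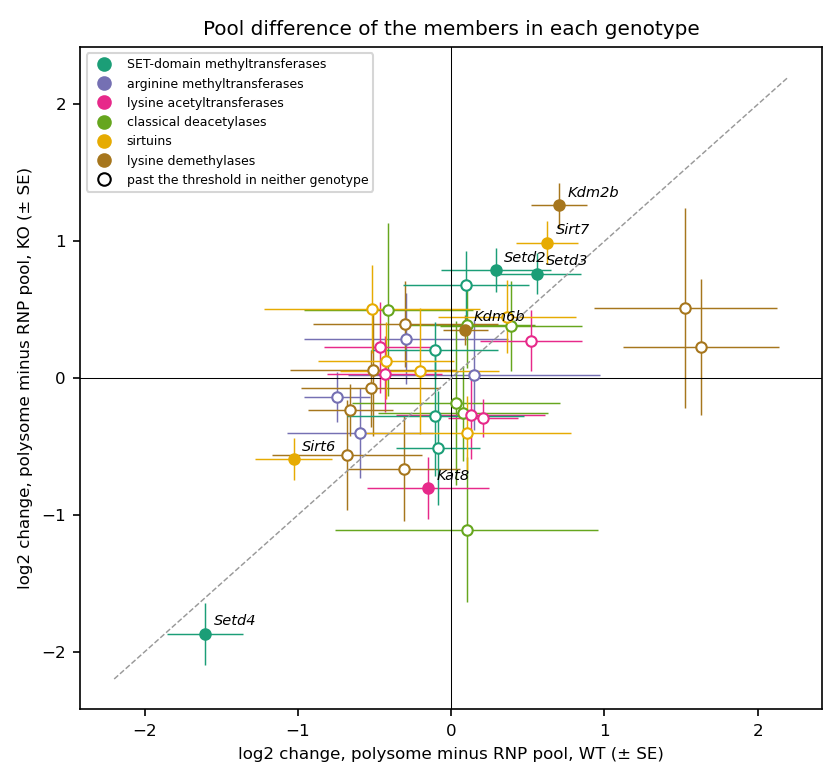
Log2 change, polysome minus RNP pool, in WT (horizontal axis) and KO (vertical axis), with its SE, for the 40 members tested in both genotypes; filled, named points passed the threshold in at least 1 genotype and the dashed line marks equal changes. *Setd4* lies far down on both axes and *Kdm2b* high on both, and most other members lie near 0 on both.

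Enzymes with the same activities but other symbols, and complex partners of the members and of these other enzymes, were compared in the same way. Of 41 other enzymes in the table (other lysine methyltransferases, acetyltransferases, demethylases and arginine-modifying enzymes), 33 were tested in polysomes and none passed between genotypes by limma, with 8 at an unadjusted p under 0.05, where 10.4% of all genes passed and 26.3% were at an unadjusted p under 0.05. In RNPs 7 of 34 passed (20.6%), 2 upward and 5 downward, beside 20.7% of all genes. The fall was largest for *Suv39h2* (-1.61), which writes H3 lysine 9 trimethylation, and *Clock* (-1.30). The rises were those of *Mina* (0.87) and *Suv420h2*, which writes the trimethylation of H4 lysine 20 that builds on the mark of *Setd8*. *Suv420h2* reached 1 FPKM in the KO RNP libraries alone, so that it entered the test through the group where it was high, and it was at 0.273, 0 and 0 FPKM in WT RNPs and 1.59, 2.90 and 3.76 in KO RNPs.

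Of 63 complex partners, 54 were tested in each pool, and 9.26% passed in polysomes and 18.5% in RNPs, beside the same 10.4% and 20.7% of all genes. In polysomes 4 rose in KO (*Jarid2*, *Msl3*, *Sin3b* and *Wdr82*) and 1, *Ing1*, fell. In RNPs 3 rose (*Msl3*, *Jarid2* and *Men1*) and 7 fell (*Ing1*, *Ing2*, *Ing3*, *Yeats4*, *Suz12*, *Mbd3* and *Eed*). Of these, *Ing2* reached 1 FPKM in the WT RNP libraries alone, so that it entered the test through the group where it was high. *Ing1*, a reader of H3 lysine 4 trimethylation in deacetylase complexes, had the largest change, -2.08 in polysomes (limma adjusted p = 0.00159) and -2.91 in RNPs. It was at 189, 172 and 142 FPKM in WT polysomes, 38.4, 47.3 and 31.9 in KO polysomes, 273, 266 and 321 in WT RNPs and 37.1, 43.4 and 31.8 in KO RNPs. *Jarid2*, a partner of the Polycomb methyltransferase, rose by 1.82 on the log2 scale in polysomes and 1.00 in RNPs, while *Eed* and *Suz12*, core subunits of the same complex, fell by 0.79 and 0.87 on the log2 scale in RNPs. Other subunits did not fall with them. *Ezh2* was at 20.8, 13.5 and 15.4 FPKM in WT RNPs and 17.2, 22.8 and 22.3 in KO RNPs. *Rbbp4* was at 12.3, 8.53 and 9.89 FPKM in WT RNPs and 15.7, 16.4 and 22.1 in KO RNPs. Neither passed the threshold there. In the ratio none of the 36 other enzymes and 55 partners tested passed by limma, with 3 and 9 at an unadjusted p under 0.05, beside 0.237% of all genes past the threshold and 11.1% at an unadjusted p under 0.05.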

How the data were processed

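The data were 12 Smart-seq2 libraries of gradient pools, sequenced as 150 bp paired-end reads. The deposited values are FPKM, made by the authors per gene with TopHat2 2.0.13 and Cufflinks 2.2.1 on mm10, with Cuffdiff and Cuffnorm also named in the submitters' processing notes. The release of the gene annotation and the strand setting are not given in the sources used here. The table's 54 columns of the authors' own comparisons hold fold changes and p-values and were not used.

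Log2(FPKM + 1) was tested with limma 3.58.1 (R 4.3.3), whose empirical Bayes step let the prior variance follow the mean level (the intensity trend), for genes with at least 1 FPKM in at least 3 libraries of the comparison. Two-sided p-values were adjusted over all genes tested by Benjamini-Hochberg, with a threshold of 0.05. The 5 comparisons were KO against WT in each pool, their difference (the polysome-to-RNP ratio) and polysomes against RNPs in each genotype. A model of counts was not used, since FPKM are not counts. The alternatives were pseudocounts of 0.1 and 5, no filter or a minimum of 5 FPKM, equal medians, quantile normalization, no intensity trend, the replicate number as a block, and leaving out each library. The procedure was tested on simulated data. Fragments per gene were estimated from the steps on which low values fall and from annotated lengths, less 200 bases, and are approximate. Positions and overlaps come from GENCODE M21, in which all 59 members were matched by symbol or its newer name.

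Members given by library were those past the threshold in any comparison, the 2 with the highest mean in each family, and the 3 with the largest rise and fall in each genotype comparison. The members, the lists of other enzymes and complex partners, and the oocyte, follicle somatic and blood and immune markers were chosen with earlier results of these data known.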

Additional observations from a re-analysis of the deposited data

How the results depend on the processing

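The 49 log2 changes followed for named members gave 777 values under other settings or without 1 library. Of these 705 kept their direction and side of the threshold, 60 were no longer past it, 1 was newly past it and 11 turned. With no filter on low values 5 members passed in RNPs between genotypes and with no intensity trend 4, in place of 8, and with no intensity trend 1 passed between pools in WT in place of 3. The cause was not tested. Leaving out 1 library gave 3 to 7 members in RNPs, 2 to 3 in polysomes, 0 in the ratio, 1 to 3 between pools in WT and 5 to 9 in KO, with the median member change between -0.011 and 0.21, 0.18 and 0.30, 0.05 and 0.24, -0.25 and 0.11, and 0.03 and 0.23. The lowest counts came without KO RNP replicate 1 in RNPs, without WT polysome replicate 2 or 3 or WT RNP replicate 1 or 2 in WT, and without any 1 KO RNP library in KO. Directions that turned were all of members not past the threshold: *Kat6b* in polysomes (0.06 without KO polysome replicate 1 and 0.17 without WT polysome replicate 1), *Prmt2* in polysomes (-0.09 and -0.03 without KO polysome replicates 2 and 3, and -0.13 without WT polysome replicate 2), *Sirt2* in polysomes (-0.13 without WT polysome replicate 2), the ratios of *Hdac3* and *Sirt2* (0.12 and 0.22 without WT polysome replicate 3), *Kdm6b* between pools in WT (-0.040 with quantile normalization) and *Kat8* there (0.14 and 0.04 without WT polysome and RNP replicate 1). Over the libraries left out, these changes ranged from -0.47 to 0.17 (*Kat6b*), -0.13 to 0.15 (*Prmt2*) and -0.13 to 1.38 (*Sirt2*) in polysomes, -0.81 to 0.12 (*Hdac3*) and -1.29 to 0.22 (*Sirt2*) in the ratio, and -0.43 to 0.14 (*Kat8*) between pools in WT. Over all genes, 545 passed in polysomes with no filter and 508 with no intensity trend, in place of 989. Between pools in WT 728 passed with no intensity trend in place of 1406, and in the ratio 6 did in place of 26. Scaling to equal medians or by quantiles left the median of all genes in polysomes between 0.05 and 0.12.

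Whether same-numbered libraries share a lysate is not stated. Their deviations from the group means correlated by -0.02 to 0.03 over 10949 genes, which gave no sign of pairing. With few libraries a group, such correlations cannot exclude it. With the replicate number as a block 3 members passed in polysomes, 6 in RNPs, 0 in the ratio, 2 between pools in WT and 7 in KO. Not past the threshold with the block were *Kat6b* (adjusted p = 0.0509) and *Prmt2* (0.0501) in RNPs, *Kdm2b* between pools in WT (0.0555) and *Kdm6b* between pools in KO (0.0558), and no other call changed. The medians stayed at 0.28, 0.04, 0.15, -0.03 and 0.06. A block by genotype in the ratio also gave 0. Over all genes the ratio count was 11 with the block and 0 with the block by genotype. Depth was estimated at 4.68 to 7.78 M fragments per library, and the power to detect changes of members under 1 FPKM was not computed.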

Other observations

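Between pools, several enzymes and partners outside the 59 members stood further apart than any member. *Kmt2d*, a methyltransferase of H3 lysine 4 at enhancers, was higher in polysomes by a log2 change of 3.11 in WT and 3.08 in KO, and its paralog *Kmt2c* by 2.19 and 2.14. *Hat1*, which acetylates new H4 histones, was higher in polysomes by 2.26 in WT and 2.205 in KO. Of the other enzymes 3 were higher and 2 lower in polysomes in WT, of 33 tested, and 3 were higher and 3 lower in KO, of 36 tested (limma, adjusted p under 0.05), beside 14.7% of all genes in WT and 29.2% in KO. Of the complex partners 5 were higher and 9 lower in WT, of 55, and 8 higher and 9 lower in KO, of 53, which are 25.5% and 32.1% of those tested. *Wdr5* and *Wdr82*, subunits of the H3 lysine 4 methyltransferase complexes, were higher in polysomes in both genotypes, by 0.65 and 0.79 in WT, and *Dpy30*, another subunit of these complexes, was lower there in KO, by -1.10. *Yeats4*, a reader of acetylated histones, was lower in polysomes, by -2.02 in WT and -1.26 in KO. No difference of these values between genotypes passed the threshold of the ratio test.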
